A study of Mus musculus with 8 samples.

Results

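The Hox genes of the HoxA, HoxB, HoxC and HoxD clusters were examined as 38 genes carried by 41 probes, picked by the RefSeq accession of each probe and not by any measured value, out of 20145 genes with a symbol on the array. The study profiled N18TG2, a mouse neuroblastoma line, and the 2/4 clone, a derivative of N18TG2 labelled for expression of ChAT, the enzyme that makes acetylcholine, with and without all-trans retinoic acid (RA), the active derivative of vitamin A. Its stated comparison is that of the clone with the parental cells under both conditions. RNA was measured on 8 one-colour arrays, 2 per group.

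The groups were the 2/4 clone with RA, the 2/4 clone untreated, parental N18TG2 with RA and parental N18TG2 untreated. All cells were grown in 10% serum, the clone was kept in the antibiotic G418 at 200 µg/mL, and RA was given at 1 µM in a differentiation medium with 1% serum. The medium of the untreated cells and the length of RA treatment are not given in the labels, so RA cannot be told apart from a change of medium, and within a line RA also goes with the row of the slide. The clone was 1 clone, so line and clonal origin cannot be told apart, and neither can line and G418. Whether the paired arrays of each group stem from different cultures is not stated, so the p-values measure the spread between these arrays, which may be technical. In bulk RNA, fewer cells that express a gene and less RNA per cell cannot be told apart. The extraction protocol names hippocampus, although the samples are labelled as a cell line. All 8 sympathoadrenal neuroblast markers, the lineage of neuroblastoma, were well above background on all arrays, against 1 of 7 hippocampal neuron markers (Zbtb20), with Prox1, Neurod6 and Neurod2 below background on every array. Chat, read as a check of the labels, gave 214.9 and 16.8% of the array's 75th percentile in the clone with RA, 7.56 and 15.2% in the untreated clone, 10.8 and 3.00% in parental cells with RA and 16.2 and 4.20% in untreated parental cells. Among markers of other cells, 1 of 5 for fibroblasts (Col1a1) and 1 of 6 for vessels, blood and microglia (Tmem119) were higher in the clone in both conditions, and Lum and Cdh5 passed on no array. The fibroblast list summed to 67.9 to 81.8% in the clone with RA, 100.4 to 112.3% in the untreated clone, 55.3 to 70.5% in parental cells with RA and 76.2 to 115.4% in untreated parental cells. The vessel, blood and microglia list summed to 121.9 to 165.8%, 121.4 to 147.1%, 35.9 to 48.4% and 169.0 to 195.1% in the same groups, and the part of these cells in the Hox results was not tested. The Chat probe did not separate the lines (adjusted p = 0.896 untreated and 0.0991 with RA, limma), whether it reads the introduced copy is not given, and "clone" below means the arrays labelled as such.

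Hox genes encode homeodomain transcription factors that set position along the body axis. They lie in 4 clusters, in the mouse on chromosomes 6 (HoxA), 11 (HoxB), 15 (HoxC) and 2 (HoxD), and are numbered from the 3′ end of the cluster, low numbers being used early and anteriorly and high numbers late and posteriorly. RA receptors bind response elements in and around the clusters, and genes towards the 3′ end are classical RA-induced genes in neural and embryonal carcinoma cells. Hox proteins bind DNA together with TALE cofactors of the Pbx, Meis and Pknox families.

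The sequences just before 3 annotated starts are shown because Hoxb4 differed in most comparisons described below and Hoxc4 between the lines, while Hoxb8 lies in the same cluster as Hoxb4 beyond the genes that were detected in more than 1 array. They are the 250 bases before the RefSeq start of each gene (GRCm38.p6, plus strand, chr11:96318017-96318266 for Hoxb4, chr15:103034145-103034394 for Hoxc4 and chr11:96281655-96281904 for Hoxb8). Capitals mark half-sites of RA response elements, here the canonical AGGTCA or one of the relaxed forms AGTTCA and GGTTCA, on either strand.
Hoxb4: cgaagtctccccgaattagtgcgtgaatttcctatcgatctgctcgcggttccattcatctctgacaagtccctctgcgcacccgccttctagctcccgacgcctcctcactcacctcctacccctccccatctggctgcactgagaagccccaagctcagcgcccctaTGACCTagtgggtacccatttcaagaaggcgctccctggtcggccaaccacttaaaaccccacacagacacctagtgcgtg
Hoxc4: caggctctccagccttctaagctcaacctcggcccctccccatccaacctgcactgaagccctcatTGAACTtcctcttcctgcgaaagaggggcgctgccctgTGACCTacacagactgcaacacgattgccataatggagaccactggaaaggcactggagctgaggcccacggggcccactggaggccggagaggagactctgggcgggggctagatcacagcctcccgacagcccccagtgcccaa
Hoxb8: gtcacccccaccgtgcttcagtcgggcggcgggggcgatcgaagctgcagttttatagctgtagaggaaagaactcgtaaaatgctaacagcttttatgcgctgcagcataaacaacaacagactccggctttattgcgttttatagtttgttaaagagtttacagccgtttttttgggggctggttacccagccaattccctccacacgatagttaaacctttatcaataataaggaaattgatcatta

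The Hoxb4 window held 1 half-site, AGGTCA read on the minus strand, beginning 81 bases before the start. The Hoxc4 window held 2, AGTTCA and AGGTCA on the minus strand, beginning 184 and 146 bases before it, and the Hoxb8 window held none. RefSeq windows were matched for 22 of the 38 genes (24 windows), and 33.3% of these held a half-site against 30.7% of all 32841 windows. AGGTCA alone was in 25% of the Hox windows and 14% of all windows. Half-sites also lay in windows of Hoxd3, Hoxd4, Hoxd8, Hoxd10 and Hoxd13, none of them detected in more than 1 array. Hoxa7, which no comparison called, held one as well. The half-sites were thus not confined to genes that differed. Hoxb2, Hoxb5, Hoxb6, Hoxc5, Hoxc6 and Hoxc12, each called in a comparison below, had no window. Called and uncalled genes therefore cannot be compared here. No Hox window held 2 of these half-sites as a direct repeat spaced by 1, 2 or 5 bases, the layout of a complete RA response element, which 0.253% of all windows held. The Pbx-Hox motif TGATNNAT, searched on both strands, was in 16.7% of the Hox windows, among them Hoxb1 and Hoxb8, and in 7.69% of all windows. These matches describe letters in a window and were not tested as binding sites.

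Most Hox genes were near or below the detection limit. A gene was taken as detected when one probe was well above background, a flag of the scanner software, on at least 2 of the 8 arrays. By that measure 17 of the 38 Hox genes (44.7%) were detected, against 75.3% of all genes with a symbol. The HoxC cluster had the highest share, 7 of 9 genes, followed by HoxB with 5 of 10, HoxA with 4 of 10 and HoxD with 1 of 9. Hoxb3, Hoxc4, Hoxc6, Hoxc9 and Hoxc10 were above background on all 8 arrays. Another 10 Hox genes passed on 1 array only and 11 on none.

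**Figure D1:**
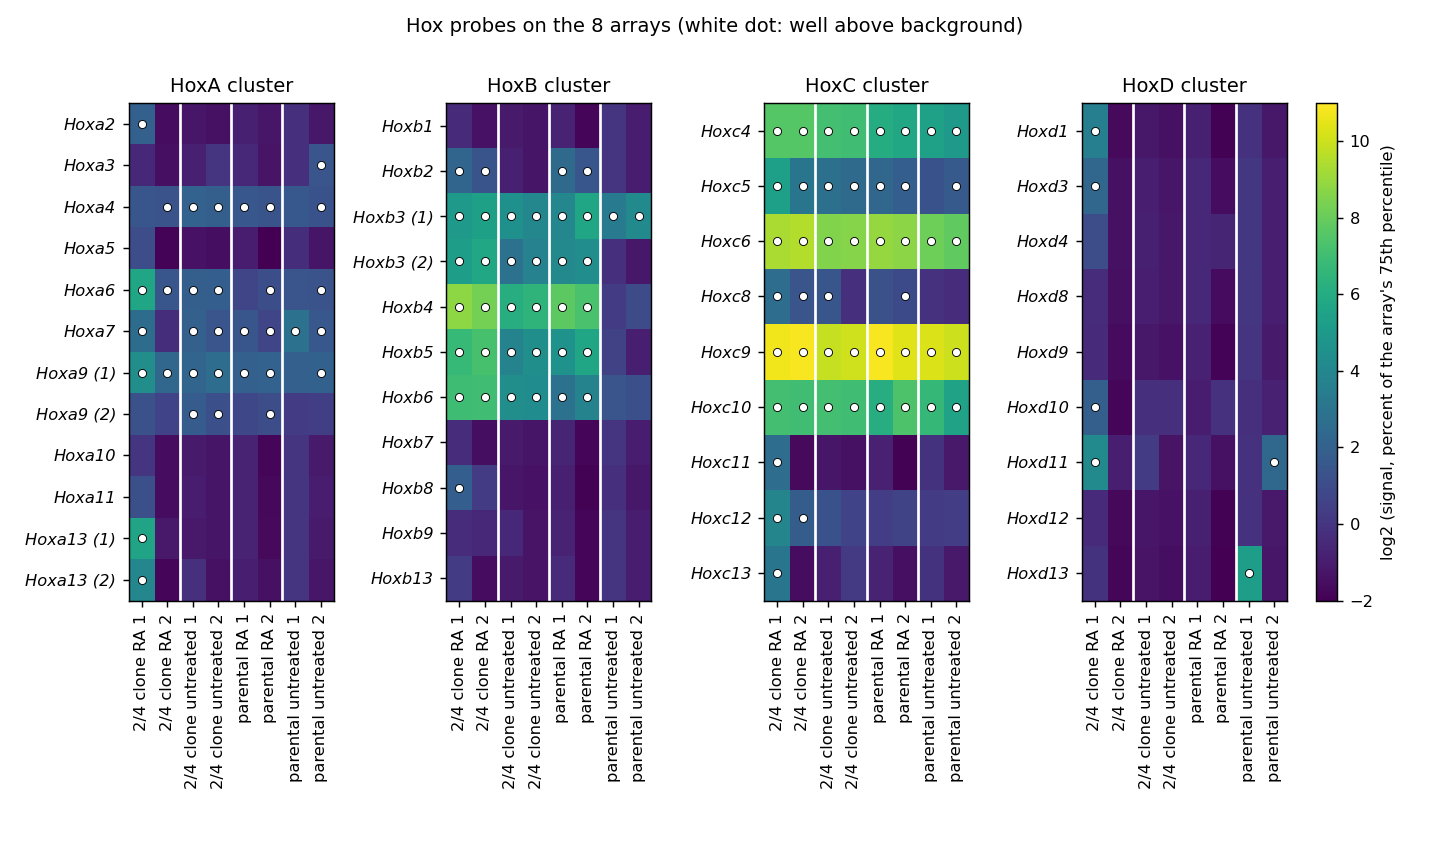
Signal of the 41 Hox probes (rows, 3′ genes at the top of each cluster) on the 8 arrays (columns), as log2 of the percent of the array's 75th percentile, with a white dot where the probe was well above background. Values can be compared along a row and not between rows, since probes differ in brightness. Dots fill Hoxb3 to Hoxb6 in every group other than untreated parental cells, where the brighter Hoxb3 probe is the only one of these with dots.

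The number of Hox genes above background was 24 and 15 on the clone arrays with RA, 14 and 13 on the untreated clone arrays, 13 and 15 on the parental arrays with RA and 7 and 12 on the untreated parental arrays. Untreated parental replicate 1, with 7, was the dimmest array (75th percentile 264.8). It also had the smallest share of all probes above background (47.7%). Clone RA replicate 1 stood apart. It was the array with the largest share of all probes above background (71.7%, against 47.7 to 62.8% on the others), and the replicates of its group correlated less well over the features tested (r = 0.9625) than those of the other groups (0.983 to 0.9872). Hoxa2, Hoxa13, Hoxb8, Hoxc11, Hoxc13, Hoxd1, Hoxd3 and Hoxd10 were above background on that array alone. Hoxa13, a marker of the most posterior and distal limb territory, read 47.4 and 0.468% of the array's 75th percentile in the clone with RA by its brighter probe, and at most 0.955% on the other 6 arrays. Hoxd13 was likewise above background on untreated parental replicate 1 alone, at 39.6% there and at most 0.949% elsewhere, and Hoxa3 on untreated parental replicate 2 alone, at 2.72%. Values without it are given beside the results it moved most.

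In the HoxB cluster the detected genes formed one uninterrupted stretch. Hoxb2, Hoxb3, Hoxb4, Hoxb5 and Hoxb6 were detected, while Hoxb1, Hoxb7, Hoxb9 and Hoxb13 were below background on every array and Hoxb8 passed only on clone RA replicate 1 (3.66%). Over this stretch untreated parental cells were below background apart from the brighter Hoxb3 probe, and the untreated clone and both lines with RA were above background from Hoxb3 to Hoxb6. In the annotation the spans of Hoxb3 and Hoxb4 overlap, and the antisense gene Hoxb5os overlaps Hoxb5 and Hoxb6. Whether a probe reads a neighbour's transcript was not tested.

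Hoxb4, a regulator of hindbrain and spinal cord identity that also expands blood stem cells, read 440.5 and 308.4% of the array's 75th percentile in the clone with RA, 69.0 and 86.7% in the untreated clone, 212.5 and 156.4% in parental cells with RA and 1.22 and 2.05% in untreated parental cells. Untreated parental arrays were both below background and far under all 6 others, and no group overlapped another. Hoxb5, which patterns vagal neural crest and the enteric nervous system, read 103.7 and 149.5% in the clone with RA, 14.3 and 21.96% in the untreated clone, 25.7 and 51.1% in parental cells with RA and 1.48 and 0.541% in untreated parental cells. Again the untreated parental arrays were below background, and the order of the groups was that of Hoxb4.

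Hoxb6 read 125.3 and 127.9% in the clone with RA, 21.4 and 20.0% in the untreated clone, 7.18 and 14.3% in parental cells with RA and 2.70 and 2.26% in untreated parental cells. Here the untreated clone stood above the parental cells with RA, the opposite of the order at Hoxb4 and Hoxb5. Hoxb2, which acts in the hindbrain at the level of the facial nerve, read 4.66 and 2.63% in the clone with RA, 0.546 and 0.409% in the untreated clone, 5.56 and 2.83% in parental cells with RA and 1.01 and 0.4998% in untreated parental cells. It was above background on the 4 RA arrays and on none of the 4 untreated arrays, and the lines overlapped with RA.

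The 2 probes of Hoxb3 differed. The brighter probe (A_51_P460643) read 31.7 and 41.5% in the clone with RA, 23.1 and 16.3% in the untreated clone, 15.9 and 49.7% in parental cells with RA and 10.7004 and 18.6% in untreated parental cells, and was called in no comparison. The second (A_52_P312467) read 38.4 and 56.2% in the clone with RA, 7.53 and 13.6% in the untreated clone, 17.6 and 20.5% in parental cells with RA and 0.864 and 0.440% in untreated parental cells, where it was below background. Which transcripts each probe reads is not given in the sources used here. Hoxb3 is represented by the brighter probe in the counts that follow.

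**Figure D2:**
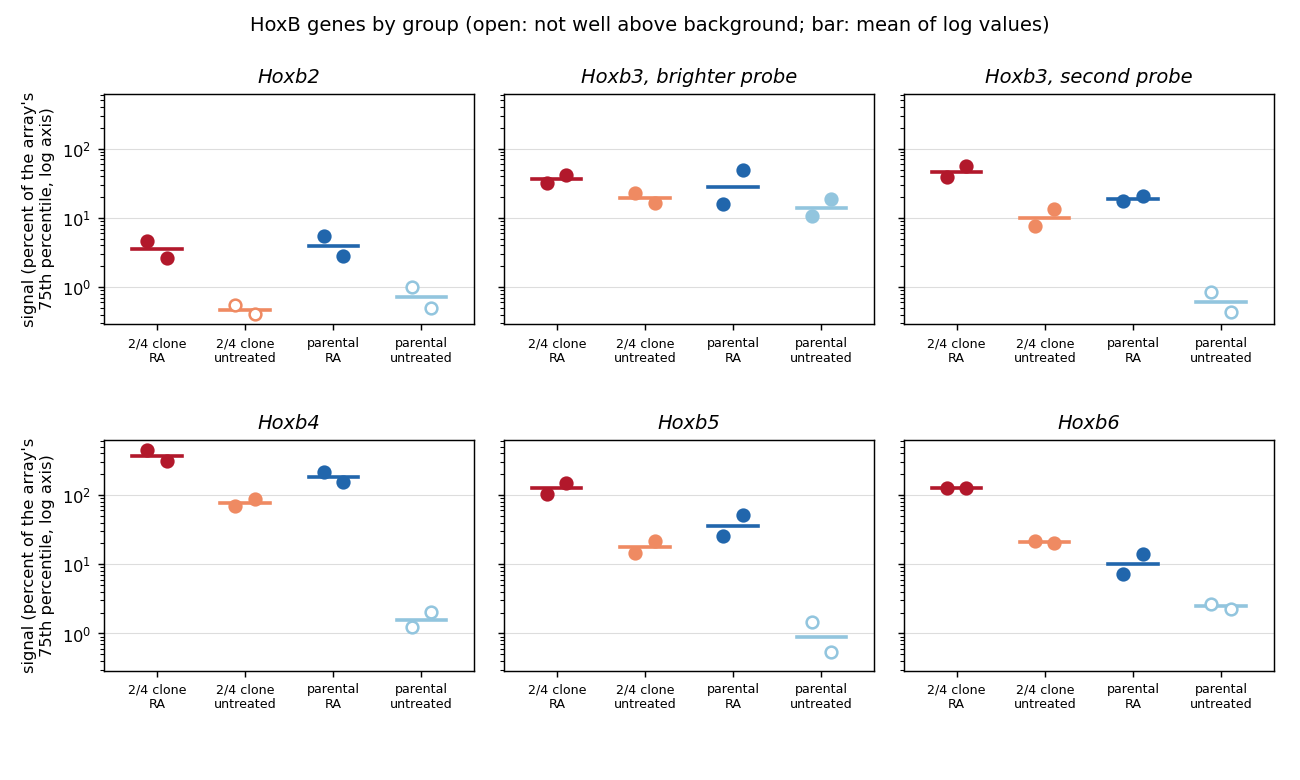
Signal of the detected HoxB probes on each array (points, log axis, percent of the array's 75th percentile) in the 4 groups, with the mean of the log values as a bar and open points where the probe was not well above background. Hoxb4, Hoxb5, Hoxb6 and the second Hoxb3 probe are open only in untreated parental cells, and Hoxb2 is open in both untreated groups.

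Differences were tested with limma over 26247 features, 1 per gene, and a call required p below 0.05 after Benjamini-Hochberg adjustment. Where a gene was below background on both arrays of a group only a bound on the fold is given, "at least N-fold", computed from the lowest signal that was well above background on those arrays, or the gene's own if higher. For such groups a fitted log2 difference depends on signals below background. In the reported fit it is printed for a gene only in the interaction. From alternative fits it is printed to show how it moved with the processing, and not as a size. Other log2 differences carry standard errors (2 arrays per group).

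In parental cells Hoxb4 and Hoxb5, in the middle of the HoxB stretch, were above background with RA and below it without. Of the 17 Hox genes tested, 2 were higher with RA and 0 lower, where 0.556% of all features were higher, 0.591% lower and 1.15% either. Both RA arrays lay above both untreated arrays for 9 of the 17 and below for 3, beside 23.7% and 20.5% of all features. Hoxb4 rose at least 62.2-fold (adjusted p = 0.00394) and Hoxb5 at least 12.4-fold (adjusted p = 0.0154). Hoxb6, at least 3.32-fold higher, fell just outside the threshold (adjusted p = 0.0583), as did Hoxb2, at least 1.35-fold higher (adjusted p = 0.0801). Hoxb2 passed the detection filter only through RA arrays, so its difference is a description. By itself, the second Hoxb3 probe was at least 6.48-fold higher with RA (adjusted p = 0.0176 over all 36619 probes), a reading added after the disagreement of the 2 probes was seen.

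None of the 4 HoxA genes or the 7 HoxC genes tested was called for RA in parental cells. The closest was Hoxc6, 0.86 ± 0.27 higher on the log2 scale (SE, adjusted p = 0.2). The median difference of the 17 Hox genes was 0.66 against 0.03 for all features. With another background correction (normexp) it was -0.07 against -0.22 for all features. When dim probes were kept it was -0.54 over all 38 genes, undetected ones included, against -0.15 for all features. The sign of the Hox median thus turned with the processing, although with normexp it stayed above the median of all features. Without parental RA replicate 1 or either untreated parental array the Hoxb4 call was lost (adjusted p from 0.0516 to 0.0632), and the Hoxb5 call was lost without any 1 of the 6 arrays other than the clone RA pair (adjusted p from 0.0511 to 0.101).

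In the clone 4 HoxB genes were higher with RA, all but Hoxb2 of them above background without it. Hoxb2, Hoxb4, Hoxb5 and Hoxb6 were higher with RA and 0 of the 17 Hox genes lower, where 2.6% of all features were higher, 2.05% lower and 4.65% either. Groups did not overlap for 10 of the 17 that were higher and 1 that was lower (Hoxa4), beside 24.3% and 28.5% of all features. Hoxb4 rose by 2.25 ± 0.37 on the log2 scale (4.77-fold, adjusted p = 0.028), Hoxb5 by 2.81 ± 0.57 (7.03-fold, adjusted p = 0.0435) and Hoxb6 by 2.61 ± 0.37 (6.11-fold, adjusted p = 0.021). Hoxb2 was at least 1.88-fold higher (adjusted p = 0.0316), having passed the detection filter through the RA arrays alone. Its fitted difference was 0.33 with normexp (adjusted p = 0.97), 1.60 with quantile normalization (0.152) and 0.91 with dim signals set to a floor (0.349). The brighter Hoxb3 probe was 0.90 ± 0.57 higher (adjusted p = 0.412), and its second probe 2.20 ± 0.46 (adjusted p = 0.0588).

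The median Hox difference for RA in the clone was 1.38 on the log2 scale, against 0.02 for all features, but 0.76 without clone RA replicate 1, 2.00 without clone RA replicate 2 and 0.57 with normexp. Calls were lost when single arrays were left out, which leaves 1 array in a group. The fitted log2 differences in these fits were 2 to 2.51 for Hoxb4, 2.5 to 3.12 for Hoxb5 and 2.56 to 2.66 for Hoxb6. The Hoxb5 call was lost without any 1 of the 8 arrays (adjusted p from 0.0509 to 0.207), the Hoxb6 call without either untreated clone array (0.133 to 0.171), the Hoxb4 call without either untreated clone array or clone RA replicate 1 (0.0648 to 0.175), and the Hoxb2 call without either untreated array of either line or clone RA replicate 1 (0.0509 to 0.21). All 4 calls were lost when only the 2 groups compared entered the fit (adjusted p = 0.0996 for each) and when dim probes were kept (0.0808 to 0.123). In both of these fits 0 of all features were called for RA in the clone.

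For Hoxa6 and Hoxa9 the RA difference in the clone rested on clone RA replicate 1. Hoxa6 read 49.96 and 2.76% in the clone with RA against 3.79 and 3.75% in the untreated clone, and Hoxa9 read 21.2 and 4.83% against 4.67 and 6.17%. Their RA differences in the clone were 1.64 ± 1.15 and 0.92 ± 0.63 on the log2 scale (adjusted p = 0.46 and 0.452), and without clone RA replicate 1 they were -0.45 and -0.15.

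The Hoxb4 response to RA differed between the lines in the fit reported, a call that most alternatives did not keep. Its RA difference in the clone minus that in parental cells was -4.60 ± 0.53 on the log2 scale (adjusted p = 0.0381), where 0.0838% of all features were called lower, 0.122% higher and 0.206% in either direction. With the untreated parental level set at its bound, the parental fold was at least 13.1 times the clone's, at least 62.2-fold against 4.77-fold. The size of this interaction rests on untreated parental arrays that were below background, and slide row goes with the interaction in this layout. The call was lost without any 1 of the 6 arrays other than the clone RA pair (adjusted p from 0.122 to 0.25), and in 5 of 8 other alternatives: it was -1.69 with normexp (adjusted p = 0.372), -4.11 with quantile normalization (0.051), -3.71 with dim signals set to a floor (0.067), and -4.60 both with dim probes kept (0.178) and with a block for slide side (0.0565). Hoxb5 went the same way, -2.52 ± 0.81, without passing (adjusted p = 0.233), and Hoxb6 gave 0.58 ± 0.52 (adjusted p = 0.715).

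Without RA, the clone carried HoxB transcripts that the parental cells lacked at this detection limit. Of the 17 Hox genes, 4 were higher in the untreated clone and 0 lower, where 6.16% of all features were higher, 3.69% lower and 9.85% either. Both clone arrays lay above both parental arrays for 11 of the 17 and below for 0, beside 36.2% and 23.8% of all features. Hoxb4 was at least 26.4-fold higher (adjusted p = 0.000345), Hoxb6 at least 6.80-fold (adjusted p = 0.00312) and Hoxb5 at least 6.05-fold (adjusted p = 0.00485). The second Hoxb3 probe, again by itself, was at least 3.45-fold higher (adjusted p = 0.00347), whereas the brighter one differed by 0.46 ± 0.57 (adjusted p = 0.694). The fourth gene was Hoxc4.

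Hoxc4, the 3′-most gene of its cluster, read 187.3 and 191.9% in the clone with RA, 138.0 and 130.4% in the untreated clone, 66.1 and 54.5% in parental cells with RA and 43.9 and 32.9% in untreated parental cells. All 4 clone arrays lay above all 4 parental arrays. The clone was higher by 1.82 ± 0.28 on the log2 scale without RA (3.53-fold, adjusted p = 0.0085) and by 1.66 ± 0.28 with RA (3.16-fold, adjusted p = 0.0067). Within a line RA made no called difference, 0.50 ± 0.28 in the clone (adjusted p = 0.353) and 0.66 ± 0.28 in parental cells (adjusted p = 0.345).

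The untreated Hoxb4 and Hoxb6 differences between the lines passed the test without each of the 8 arrays in turn (adjusted p at most 0.00702 and 0.0331). The Hoxb5 call was lost without untreated clone replicate 2 (adjusted p = 0.0509), and the untreated Hoxc4 call without either untreated clone array or untreated parental replicate 2 (0.0659 to 0.0703). With normexp the Hoxb5 and Hoxb6 differences were 1.07 (adjusted p = 0.34) and 0.94 (adjusted p = 0.274) and no longer passed. The median of the 17 Hox genes was 0.60 on the log2 scale against 0.12 for all features. It was -0.09 against -0.19 for all features with normexp. When dim probes were kept it was -0.59 over all 38 genes, against -0.09 for all features.

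With RA in both lines, Hoxb6, Hoxc4 and Hoxc12 were higher in the clone and 0 of the 17 Hox genes lower, a share of 17.65% that is near the background, since 12.9% of all features were higher, 10.2% lower and 23.2% either. Both clone arrays lay above both parental arrays for 10 of the 17 and below for 0, beside 30.9% and 27.8% of all features. Hoxb6 was 3.65 ± 0.37 higher on the log2 scale (12.5-fold, adjusted p = 0.000899), a call kept in every alternative in which Hoxb6 was tested, as was that of Hoxc4. Hoxb4 (1.02 ± 0.37, adjusted p = 0.0954) and Hoxb5 (1.78 ± 0.57, adjusted p = 0.065) did not pass, although their groups did not overlap. Hoxc12 read 15.2 and 3.51% in the clone with RA, where it was above background on both arrays, and between 1.20 and 2.45% on the other 6, none above background. Hoxc12 passed the detection filter only through the clone RA arrays, so it had to differ there and its call is a description. That difference was at least 3.72-fold (adjusted p = 0.0397) and was not called when dim probes were kept (0.092) or without any 1 of the 6 arrays outside the clone RA pair (0.0647 to 0.154). Without either clone RA array it no longer passed the detection filter.

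**Figure D3:**
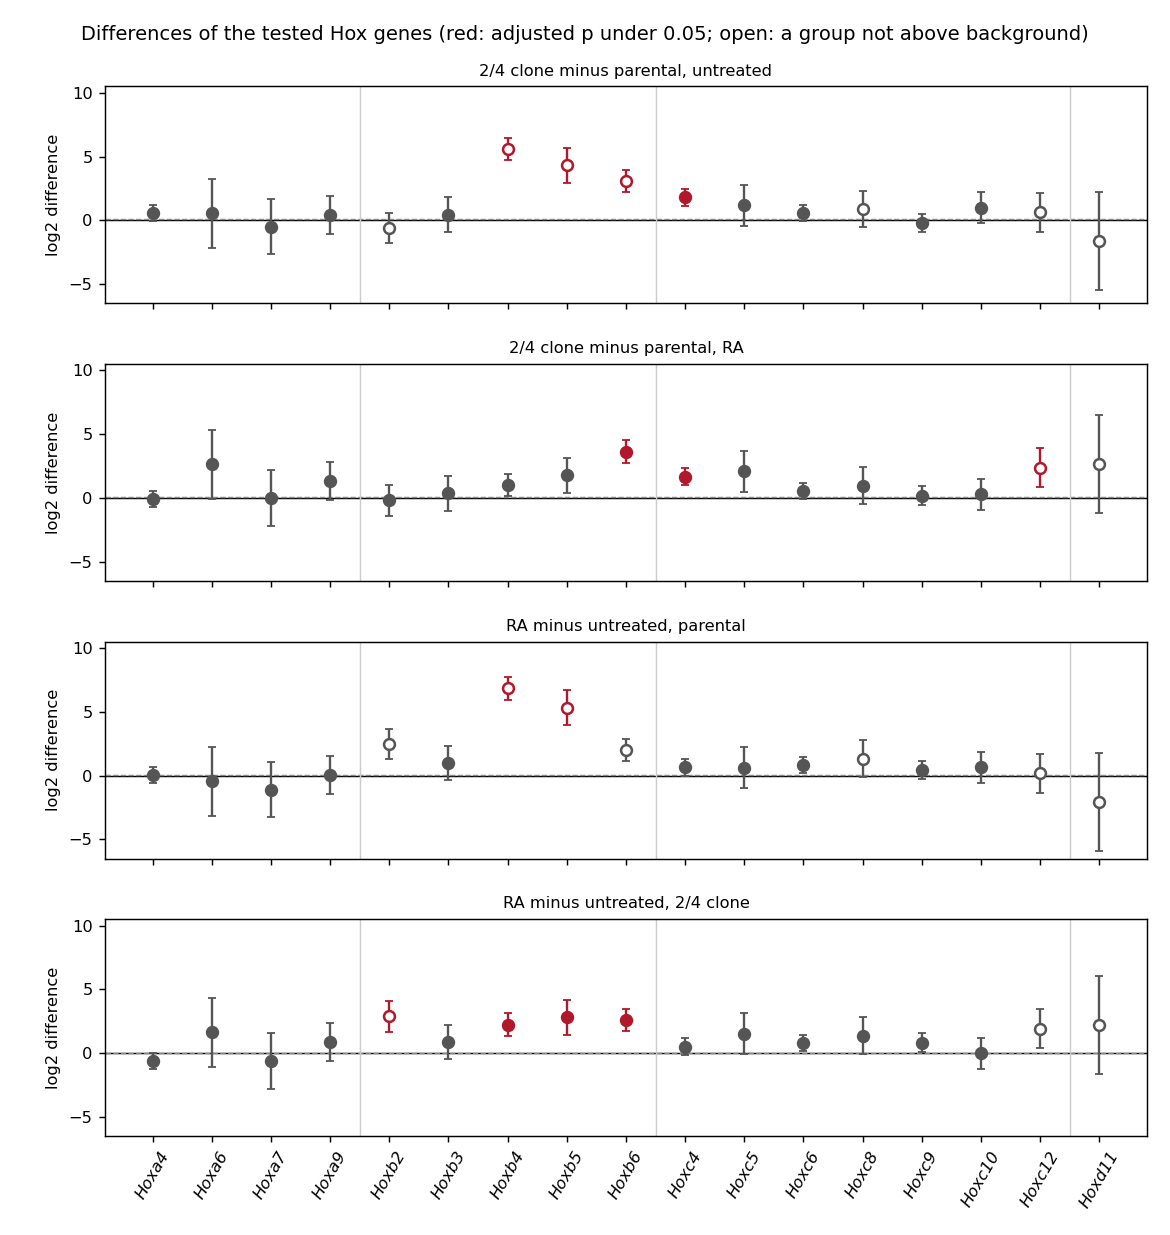
Log2 differences of the 17 tested Hox genes in the order of their clusters, for the clone minus parental cells without and with RA and for RA minus untreated in each line. Bars are 95% confidence intervals, red marks an adjusted p under 0.05, open points have at least 1 group below background, and the dashed line is the median of all features. Red points lie at Hoxb2, Hoxb4, Hoxb5, Hoxb6, Hoxc4 and Hoxc12.

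Hoxc4, Hoxc6, Hoxc9 and Hoxc10 were above background in both lines under both conditions, untreated parental cells included. Hoxc9, a posterior gene that defines thoracic spinal cord and sympathetic levels, read 1715 and 1885% in the clone with RA, 940.4 and 1071% in the untreated clone, 1882 and 1310.0% in parental cells with RA and 1292 and 1033% in untreated parental cells. It was above background on every array, and its largest difference, 0.84 ± 0.30 for RA in the clone, did not pass (adjusted p = 0.167). Hoxc6 read 651.4 and 722.0% in the clone with RA, 367.9 and 403.8% in the untreated clone, 497.0 and 427.6% in parental cells with RA and 282.1 and 228.6% in untreated parental cells. Both RA arrays were above both untreated arrays in each line.

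Hoxc10, a lumbar-level gene, read 137.0 and 127.1% in the clone with RA, 137.8 and 127.0% in the untreated clone, 69.6 and 164.3% in parental cells with RA and 99.6 and 45.0% in untreated parental cells. The parental replicates were wider apart than the groups, and no comparison called it. Hoxc5 read 39.9 and 8.32% in the clone with RA, 6.95 and 5.65% in the untreated clone, 4.95 and 3.66% in parental cells with RA and 2.39 and 3.19% in untreated parental cells. Its groups did not overlap between lines, but the clone RA arrays lay further apart than the groups did.

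Hoxc8, a brachial to thoracic gene, read 6.28 and 2.65% in the clone with RA, 2.77 and 0.879% in the untreated clone, 2.31 and 1.92% in parental cells with RA and 0.897 and 0.791% in untreated parental cells. It was above background on both clone arrays with RA, on 1 array each of the untreated clone and of parental cells with RA, and on neither untreated parental array, and no comparison called it. Hoxc11 and Hoxc13 passed on clone RA replicate 1 alone, at 6.16 and 8.31%.

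**Figure D4:**
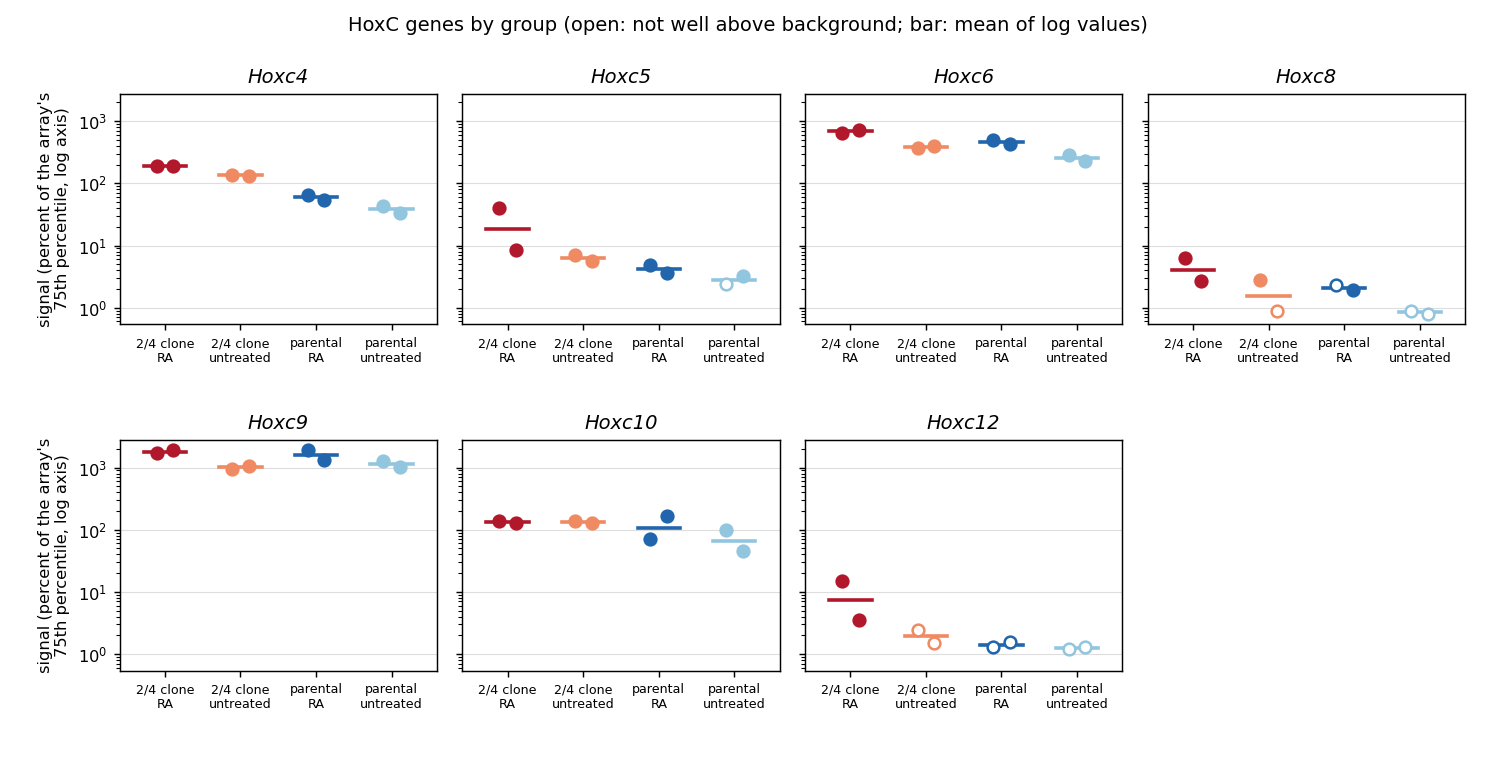
Signal of the 7 detected HoxC probes on each array (points, log axis, percent of the array's 75th percentile) in the 4 groups, with the mean of the log values as a bar and open points where the probe was not well above background. Hoxc4 is higher on all 4 clone arrays than on all 4 parental arrays, and Hoxc6, Hoxc9 and Hoxc10 are filled throughout.

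Most HoxA and HoxD genes lay near or below the detection limit, apart from single arrays such as clone RA replicate 1. Hoxa4, a cervical-level gene, read 2.80 and 2.55% in the clone with RA, 4.20 and 3.81% in the untreated clone, 2.89 and 2.61% in parental cells with RA and 2.98 and 2.42% in untreated parental cells. Hoxa7 read 6.00 and 0.807% in the clone with RA, 3.98 and 2.73% in the untreated clone, 2.83 and 1.66% in parental cells with RA and 7.35 and 2.89% in untreated parental cells. For Hoxa4 both untreated clone arrays lay above the other 6, a difference that did not pass against untreated parental cells (0.58 ± 0.26 on the log2 scale, adjusted p = 0.247) or against the clone with RA (adjusted p = 0.26), and Hoxa7 was lower on both parental RA arrays than on both untreated parental arrays without passing (-1.09 ± 0.92, adjusted p = 0.688). In parental cells Hoxa6 read 1.62 and 2.20% with RA against 2.69 and 2.48% untreated, and Hoxa9, by its brighter probe, read 3.93 and 4.25% against 3.98 and 4.10%. No HoxA gene was called in any of the 7 comparisons.

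Hoxd11 was the only HoxD gene to pass the filter, through clone RA replicate 1 (19.0%) and untreated parental replicate 2 (5.02%), with 0.373 to 1.19% and no detection on the other 6 arrays. Of the undetected Hox genes, Hoxa5, Hoxa10, Hoxa11, Hoxb1, Hoxb7, Hoxb9, Hoxb13, Hoxd4, Hoxd8, Hoxd9 and Hoxd12 were below background on all 8 arrays. Less RNA than the arrays can show and no RNA cannot be told apart for these.

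Averages over both conditions or both lines use all 8 arrays and are the only contrasts in which slide row cancels. Slide column still goes with line in the average clone difference. On average over the treatments, Hoxb4, Hoxb5, Hoxb6, Hoxc4, Hoxc5 and Hoxc12 were higher in the clone and 0 lower, 6 of 17 where 16.1% of all features were higher, 11.6% lower and 27.7% either. The first 4 held without each array in turn and in every other alternative in which they were tested, with Hoxc4 at 1.74 ± 0.20 on the log2 scale (3.34-fold, adjusted p = 0.000982). Hoxc5 was 1.64 ± 0.48 higher (adjusted p = 0.0421), 1.07 without clone RA replicate 1 (adjusted p = 0.0182), and was not called without any 1 of the 6 arrays outside the clone RA pair (0.083 to 0.12). Hoxc12, which entered the 17 only through the clone RA arrays, was at the threshold (adjusted p = 0.0498) and was lost in the 6 of those fits that could test it (0.0873 to 0.148).

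On average over the lines, Hoxb2, Hoxb4, Hoxb5, Hoxb6 and Hoxc6 were higher with RA and 0 lower, 5 of 17 where 3.2% of all features were higher, 2.68% lower and 5.88% either. Adjusted p was 0.00353 for Hoxb4, 0.0087 for Hoxb5, 0.0106 for Hoxb6 and 0.0151 for Hoxb2. Hoxb2 entered the 17 only through the RA arrays, so it had to differ there and its call is a description. That call was also lost with normexp, with dim probes kept and with dim signals set to a floor. Normexp lost the Hoxb6 call as well. Hoxc6 was 0.85 ± 0.19 higher on the log2 scale (1.80-fold, adjusted p = 0.0499) and was lost without any 1 of the 8 arrays (0.0659 to 0.171). The Hoxb4 call was lost without untreated clone replicate 2 (0.0507), that of Hoxb5 without either untreated clone array (0.0524 and 0.053), that of Hoxb6 without any 1 of the 4 untreated arrays (0.0509 to 0.0705), and that of Hoxb2 without any 1 of these or parental RA replicate 1 (0.0531 to 0.0848).

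Genes beside the clusters were read for comparison. Of 18 flanking genes chosen, 15 were tested. Skap1, an adaptor of T cell adhesion signalling that lies beyond the Hoxb1 end of the HoxB cluster, read 41.7 and 65.2% in the clone with RA, 21.9 and 31.5% in the untreated clone, 0.515 and 1.05% in parental cells with RA and 0.823 and 0.422% in untreated parental cells. It was above background on all 4 clone arrays and on no parental array, at least 30.4-fold higher with RA (adjusted p = 0.00042) and at least 8.95-fold higher without (adjusted p = 0.00101). Skap1 thus passed the detection filter only through the clone arrays, and its calls between the lines are descriptions. RA made no called difference to Skap1 in the clone (0.99 ± 0.50, adjusted p = 0.306), and in parental cells it was below background with and without RA. The HoxB genes nearest to it thus did not share its pattern: Hoxb1 was undetected and Hoxb2 overlapped between the lines with RA.

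Smug1, a DNA repair glycosylase next to Hoxc4, read 982.7 and 1118% in the clone with RA, 460.2 and 505.0% in the untreated clone, 385.0 and 434.3% in parental cells with RA and 273.0 and 254.5% in untreated parental cells. Like Hoxc4 it was higher in the clone with RA (1.36 ± 0.26 on the log2 scale, adjusted p = 0.0105), and the untreated difference of 0.87 ± 0.26 did not pass (adjusted p = 0.0859). Snx10, near the HoxA cluster, was also higher in the clone with RA (1.34 ± 0.34, adjusted p = 0.0313) and Cbx1, near HoxB, was lower (-1.12 ± 0.27, adjusted p = 0.0267). These 3 higher and 1 lower calls of 15, Skap1 included, stand beside 12.9% and 10.2% of all features. For RA, 0 of 15 passed in either line, near the 4.65% of all features called in the clone and the 1.15% in parental cells. Of the noncoding RNAs of the clusters, 2 of 9 had probes and Hoxa11os was tested, 1.63 ± 0.39 higher in the untreated clone (adjusted p = 0.0451), while Hoxa11 itself was below background on every array.

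All 9 TALE cofactor genes were detected and tested, and 0 were called for RA in either line, where 4.65% of all features were called in the clone and 1.15% in parental cells. Pknox2 was 3.77 ± 0.59 higher on the log2 scale in the clone with RA than in parental cells with RA (adjusted p = 0.00514), the only one called there. This count, 1 higher of 9, is near the 12.9% of all features that were higher. Of 13 ParaHox and other Hox-linked homeobox genes, 3 were tested. With RA, Gsx1 was at least 1.97-fold higher in the clone (adjusted p = 0.0277) and Gbx1 lower (-2.62 ± 0.29 on the log2 scale, adjusted p = 0.00137). Gsx1 passed the detection filter only through clone arrays, so its call between the lines is a description. These counts, 1 higher and 1 lower of 3, stand beside 12.9% and 10.2% of all features.

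Some RA receptors and enzymes of RA turnover responded to RA. Of 18 such genes, 15 were tested. In parental cells with RA, Cyp26b1, which degrades RA, and Rarb, a receptor that is itself an RA target, were higher, and Stra6, a retinol transporter, was lower. In the clone Cyp26b1 was higher with RA and Stra6 lower. Of the 15 tested, 2 were higher and 1 lower in parental cells, where 0.556% of all features were higher and 0.591% lower. In the clone 1 was higher and 1 lower, where 2.6% of all features were higher and 2.05% lower. Rarb passed the detection filter only through RA arrays, so its call for RA is a description. Cyp26b1 read 4857 and 15360% in the clone with RA, 133.7 and 80.4% in the untreated clone, 5101 and 8221% in parental cells with RA and 190.3 and 116.8% in untreated parental cells. It rose by 6.38 ± 0.60 on the log2 scale in the clone (adjusted p = 0.0118) and by 5.44 ± 0.60 in parental cells (adjusted p = 0.0155). The lines overlapped within each treatment.

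Members of the RA list also differed between the lines. Without RA, Cyp26a1, Rarg, Rxra and Stra6 were higher in the clone and Rdh10 and Aldh1a3 lower. These 4 higher and 2 lower of 15 stand beside 6.16% and 3.69% of all features. With RA, Cyp26a1, Rarg, Rxra and Stra6 were again higher in the clone, and Rdh10 and Rarb were lower. Here the 4 higher and 2 lower of 15 stand beside 12.9% and 10.2% of all features. The tested Rarb probe read 0.705 and 0.944% in the clone with RA and 6.16 and 10.3% in parental cells with RA. It passed the detection filter only through the parental RA arrays, so its lower call in the clone with RA is a description. Cyp26a1, another RA-degrading enzyme, read 24.5 and 27.4% in the clone with RA, 9.95 and 7.81% in the untreated clone, 1.000 and 1.26% in parental cells with RA and 1.08 and 0.525% in untreated parental cells. It was above background only in the clone, at least 3.01-fold higher without RA (adjusted p = 0.00223) and at least 14.7-fold higher with RA (adjusted p = 0.000518). Cyp26a1 thus passed the detection filter only through the clone arrays, and its calls between the lines are descriptions. Rarg, an RA receptor, was higher in the clone by 2.29 ± 0.30 on the log2 scale without RA (adjusted p = 0.00484) and by 3.26 ± 0.30 with RA (adjusted p = 0.00067).

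Polycomb and trithorax proteins keep Hox genes off or on. Of 27 such genes, 26 were tested and 0 were called for RA in either line, beside the same 4.65% and 1.15% of all features. Without RA, Cbx6 was higher in the clone (1.22 ± 0.28 on the log2 scale, adjusted p = 0.0406), and 0 were lower. That 1 of 26 stands beside 6.16% of all features higher and 3.69% lower. With RA, Cbx7 and Jarid2 were higher in the clone (1.55 ± 0.35, adjusted p = 0.0195, and 2.09 ± 0.56, adjusted p = 0.0371), and Rbbp5 and Suz12 lower (-1.96 ± 0.38, adjusted p = 0.012, and -1.16 ± 0.31, adjusted p = 0.0384). These counts, 2 higher and 2 lower of 26, stand beside 12.9% and 10.2% of all features.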

How the data were processed

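Total RNA of 8 samples was hybridised to one-colour Agilent arrays (design 028005). Per the file headers, Feature Extraction 10.7.3.1 made the deposited intensity, background-subtracted and detrended within each array and not scaled between arrays, and set the deposited 0 or 1 flags, which serve here as detection and outlier scores. The series table's deposited log2 values differ from the levels used here by 1 constant per array (0.153 to 0.259), from the values themselves.

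Control spots (3671 of 62976) and outlier-flagged spots were left out and spots of a probe averaged. The level is log2 intensity minus the array's 75th percentile, printed as percent of that percentile, which was 264.8 to 1264 in intensity units. Arrays carry no read depth, and 2 per group limit the precision. Of 55681 probes, 36619 passed the detection flag on 2 or more arrays, and the brightest probe stood for each gene (26247 features, 15169 with a symbol). limma 3.58.1 in R 4.3.3 fitted 1 mean per group to all arrays with 4 residual degrees of freedom. The fit was checked on simulated data. Figures used matplotlib.

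All arrays lay on 1 slide. Row 1 held the untreated clone and the parental RA arrays, and row 2 the clone RA and the untreated parental arrays, so row cannot be told apart from RA within a line, from line within a treatment, or from the interaction. Slide columns 2 and 4 held the clone and columns 1 and 3 the parental line, so line cannot be told apart from slide column.

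All 38 Hox genes are accounted for, those detected on 2 or more arrays with values. Other lists name at most 4 called members per comparison and direction. Members and lists were chosen with earlier results of these data known. Promoter windows and gene order are from RefSeq (GRCm38.p6), and the array's own coordinates (mm9) were not used. Normexp took median spot signals, since the tables hold no mean, with an offset of 50. The alternatives were normexp, quantile normalization, the series table, no or a stricter detection filter, flooring of dim signals, averaging over probes, trended and robust variance, fits restricted to the compared groups, a block for slide side, each probe by itself (added after the data were seen) and leaving out each array.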

Additional observations from a re-analysis of the deposited data

Results flagged for a closer look

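The RA difference of Hoxb4 in the clone minus its RA difference in the parental line was -4.60 on the log2 scale (limma adjusted p = 0.0381, the test of the difference itself). It was picked out because the response to RA differed between the lines. The untreated parental arrays were below background for Hoxb4. The part of slide row in this difference cannot be told apart from that of line and RA.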

How the results depend on the processing

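No paired analysis was possible because the labels give the arrays of different groups no shared replicate numbers. A block for slide side, which groups arrays by position alone, lost the calls of Hoxb5 for RA in the clone (adjusted p = 0.0554), of Hoxc6 for RA on average (0.0664) and of the Hoxb4 interaction (0.0565), and gained Hoxb2 for RA in parental cells (0.0286). With 1 array left out, the Hox genes called numbered 2 to 4 for the clone against parental cells untreated, 2 to 6 with RA, 0 to 4 for RA in parental cells, 0 to 7 for RA in the clone, 0 to 3 for the interaction, 4 to 7 for the average clone difference and 0 to 8 for the average RA difference, and 15 to 17 were detected. When probes had to pass on all 8 arrays, which tests fewer Hox genes, these counts were 1, 1, 0, 0, 0, 2 and 1. Normexp gave 2 for the untreated clone against parental cells, 1 for RA in parental cells, 2 for RA in the clone, 0 for the interaction and 2 for the average RA difference. With no filter on dim probes, the counts were 1, 0, 0 and 3 for the same last 4 comparisons. Other counts beyond 1.5 times the reported ones were 5 for the clone against parental cells with RA under trended variance, 0 for RA in the clone with only the groups compared, 3 for the average RA difference with a floor, and 0 for the interaction with a floor, quantile normalization, a block for slide side, or each probe by itself. Leaving out an array left its group with 1 array, so a lost call need not mean a smaller difference. The causes were not tested.

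Without clone RA replicate 1, the RA difference of Hoxa6 turned to -0.45 in the clone and -0.45 on average, and that of Hoxa9 to -0.15 and -0.067, against 3.73, 1.64, 1.98 and 1.00 without clone RA replicate 2. With normexp, positive Hox differences numbered 6 of 17 for the untreated clone, against 13 as reported, and 8 of 17 for RA in parental cells, against 14. Among the differences that passed the test in at least 1 fit, Hoxa9 turned to -0.030 for RA on average, Hoxb2 to -0.069 for RA in parental cells, and Hoxb3 to -0.058 for the untreated clone. Normexp moved the median of all features from the reported fit by -0.31 for the untreated clone against parental cells and by -0.24 for RA in parental cells, and quantile normalization moved it by -0.25 for the clone against parental cells with RA. Among all features, higher calls were 40.6% of calls for RA in the clone with normexp, against 55.9% as reported, and 38.5% against 54.4% for the average RA difference. Signal over background limits the dim end: 21 of 38 Hox genes had no test.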
